A study of Mus musculus with 16 samples.

Results

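The genes described here are those of glutathione synthesis and recycling: *Slc7a11*, *Cth*, *Cbs*, *Gclc*, *Gclm*, *Gss*, *Gsr*, *Ggct*, *Oplah* and *Cdo1*. They were chosen by symbol, and each of the 10 symbols matched 1 row among the 18209 named genes of the liver RNA-seq table. Testing was limited to the 15781 genes whose normalized count was 10 or more in 4 or more libraries, which 9 of the 10 met. *Slc7a11* did not and is described by its reads.

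The libraries came from livers of mice labelled as male and 20 days old, 4 libraries in each of 4 genotypes. All genotypes carried the floxed allele of *Trsp*, the gene of the selenocysteine tRNA that selenoprotein synthesis needs. Mice labelled Trspfl/fl (control) had the floxed allele alone, and Trspfl/fl::AlbCre mice (*Trsp* knockout) had in addition a Cre recombinase under the albumin promoter, which acts in hepatocytes and leaves the other cells of the liver with the gene. Keap1C226SC613Shomo::Trspfl/fl mice (*Keap1* mutant) were homozygous for serine substitutions at a pair of KEAP1 cysteines, a germline change found in every cell, and Keap1C226SC613Shomo::Trspfl/fl::AlbCre mice (compound mutant) carried both changes. The study asked whether those KEAP1 cysteines are needed for the response of the liver to loss of selenoproteins. The labels number the libraries within a genotype without naming animals, so p-values measure the spread between these libraries.

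Glutathione is a tripeptide of glutamate, cysteine and glycine, and hepatocytes make and export more of it than most cells. Cysteine, usually the limiting building block, enters as cystine or is made from methionine. Glutamate-cysteine ligase joins it to glutamate, glutathione synthetase adds glycine, and glutathione reductase returns the oxidised disulfide to the reduced form. KEAP1 holds the transcription factor NRF2 at a low level until its cysteines are modified, and several genes of this pathway are known NRF2 targets.

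Values are log2(normalized count + 4), and differences between genotypes are differences of mean log2 values with a standard error (SE). The call rule used the thresholds of the study, a log2 difference over 1 in size together with an adjusted p under 0.01. Here the adjusted p came from limma over all genes tested. The study made its own calls on the iDEP platform and listed *Gclc* among the genes raised in *Trsp* knockout. Reads per library ranged from 11386669 to 19164133. *Gpx1*, a selenoprotein mRNA used to check the deletion, had log2 values of 13.09 to 14.20 in control and 11.43 to 11.99 in *Trsp* knockout, and 13.34 to 13.95 in *Keap1* mutant and 11.50 to 11.85 in compound mutant. Compound mutant replicate 1 went against its label of male, with 28798 *Xist* reads, where the other 15 libraries had 22 to 50, and 2 Y-linked reads over 4 genes, where the others had 1830 to 3066. Compound mutant replicate 4 was the highest of its genotype in 9 of the 10 genes described, and the highest in 32.4% of all genes tested. *Keap1* mutant replicate 4 was the highest of its genotype in 6 of the 10, and in 34.2% of all genes tested. For *Gclc*, *Gclm* and *Cth*, the differences below that involve the compound mutant are also given without compound mutant replicate 1 and without compound mutant replicate 4. All 8 hepatocyte markers examined, *Alb* and *Hnf4a* among them, were detected in every genotype. In whole liver RNA, fewer cells of a type and less RNA per cell cannot be told apart.

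RefSeq promoter sequences (GRCm38.p6) were at hand for 5 of the 10 genes, *Gclm*, *Gss*, *Slc7a11*, *Cbs* and *Ggct*. The 250 bases upstream of each start site were searched on both strands for TGACNNNGC, the core of the antioxidant response element that NRF2 binds. *Gclm* and *Ggct* each had 1 match, and *Gss*, *Slc7a11* and *Cbs* had 0, where 3338 of 32851 promoters (10.2%) held at least 1. Bases G and C made up 78.4% of the window in *Gclm* and 64.0% in *Ggct*. They made up 56.0% in *Gss*, 43.2% in *Slc7a11* and 68.0% in *Cbs*, beside a median of 52.4% over all promoters. The 10.2% was not matched for this share. The windows of *Gclm* and *Ggct* are shown for the match, in capitals and on the minus strand. That of *Gss* is shown for comparison, since *Gss* had the higher values in *Trsp* knockout given below and no match. *Gclm* lies on the plus strand at chr3:122245307-122245556, *Ggct* on the minus strand at chr6:54992868-54993117 and *Gss* on the minus strand at chr2:155592811-155593060.
Gclm: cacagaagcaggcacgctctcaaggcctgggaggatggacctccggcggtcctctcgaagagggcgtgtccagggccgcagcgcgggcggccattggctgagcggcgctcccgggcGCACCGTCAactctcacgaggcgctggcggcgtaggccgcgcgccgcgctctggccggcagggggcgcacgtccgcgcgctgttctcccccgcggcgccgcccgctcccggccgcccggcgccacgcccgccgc
Ggct: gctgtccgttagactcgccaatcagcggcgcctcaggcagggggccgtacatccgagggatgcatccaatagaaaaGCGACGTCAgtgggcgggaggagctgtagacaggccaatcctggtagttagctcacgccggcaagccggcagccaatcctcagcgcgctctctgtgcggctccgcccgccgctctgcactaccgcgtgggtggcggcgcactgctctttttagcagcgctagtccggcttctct
Gss: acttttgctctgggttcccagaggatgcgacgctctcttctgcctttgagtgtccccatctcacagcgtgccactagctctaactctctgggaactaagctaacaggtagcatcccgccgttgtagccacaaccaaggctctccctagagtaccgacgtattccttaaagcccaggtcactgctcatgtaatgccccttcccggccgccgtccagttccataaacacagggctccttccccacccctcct
The match began at base -134 from the start site in *Gclm* and at base -174 in *Ggct*. A match of these letters is a description of the window and not a measured binding site.

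The study also measured *Gclc* by RT-qPCR, with a pair of primers and a probe (labels left out) that show which part of the mRNA that assay read. In the GENCODE transcript Gclc-201 of 3423 bases, whose coding part runs from base 276 to base 2186, they lie within the coding part in exons 13 and 14 of 16. The forward primer spans exons 13 and 14 at bases 1743 to 1760, the probe lies in exon 14 at bases 1771 to 1789, and the reverse primer, in exon 14 at bases 1800 to 1818, reads the opposite strand.
Forward primer: atctgcaaaggcggcaac
Probe: acgggtgcagcaaggccca
Reverse primer: actcctctgcagctggctc
By that assay the study reported *Gclc* higher in *Trsp* knockout than in control, with the induction markedly reduced in compound mutant. The RNA-seq values below are per gene and not for this stretch.

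The comparison of *Trsp* knockout with control shows what went with loss of selenoproteins when KEAP1 was normal. The members that build and reduce glutathione, *Gclc*, *Gclm*, *Gss* and *Gsr*, and *Cth*, which makes cysteine, had higher values in every knockout library than in any control library. *Cbs*, *Cdo1*, *Oplah* and *Ggct* overlapped between the genotypes. None of the 9 genes tested met the call rule with limma (0 of 9, 0.215% of all genes tested), nor with voom on the recovered reads (0 of 9). At an unadjusted p under 0.05 there were 4 of 9, against 1741 of the 15781 genes.

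*Gclc* (ENSMUSG00000032350), the catalytic subunit of glutamate-cysteine ligase, had log2 values of 11.98, 11.84, 11.26 and 10.97 in control replicates 1 to 4. In *Trsp* knockout they were 12.95, 12.41, 12.71 and 12.51. The lowest knockout value lay above the highest control value, and the controls varied among themselves by more than the knockouts. The means were 11.51 ± 0.47 and 12.65 ± 0.24 (SD, n = 4), a log2 difference of 1.13 (SE 0.25) or 2.19-fold, with a limma adjusted p of 0.062 that missed both 0.01 and 0.05. Over the 26 alternatives the adjusted p ran from 0.027 to 0.18. It was under 0.05 with library totals for scaling (0.031) and without compound mutant replicates 1 (0.033) or 4 (0.027), which enter this comparison through the shared spread alone.

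*Gclm* (ENSMUSG00000028124), the modifier subunit of the same ligase, had values of 11.54, 11.51, 11.08 and 11.18 in control and of 11.70, 11.62, 11.57 and 11.64 in *Trsp* knockout. The genotypes were separate by a narrow margin, and the knockout libraries lay close together. The log2 difference was 0.31 (SE 0.16, limma adjusted p = 0.49), which cannot be told from no difference.

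*Gss* (ENSMUSG00000027610), glutathione synthetase, had values of 10.01, 9.98, 9.98 and 9.69 in control and of 10.24, 10.15, 10.35 and 10.47 in *Trsp* knockout. Every knockout library was above every control library. The log2 difference was 0.38 (SE 0.12, limma adjusted p = 0.24).

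*Gsr* (ENSMUSG00000031584), glutathione reductase, had values of 10.17, 10.07, 9.54 and 9.85 in control and of 10.55, 10.56, 10.55 and 10.75 in *Trsp* knockout. Again no library overlapped. The log2 difference of 0.70 (SE 0.14) had a limma adjusted p of 0.027, and *Gsr* was the only member under an adjusted p of 0.05 at any fold, a rule that 0.558% of all genes tested met. The adjusted p ran from 0.018 to 0.12 over 26 alternatives and was over 0.05 in 8 of them. Those were the fit of these genotypes alone (0.12), eBayes without trend (0.057), and the fits without control replicates 3 (0.075) or 4 (0.062) or without *Trsp* knockout replicates 1 (0.072), 2 (0.061), 3 (0.062) or 4 (0.092).

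*Cth* (ENSMUSG00000028179), cystathionine gamma-lyase, releases cysteine in the last step of transsulfuration. Its values were 11.95, 12.17, 11.54 and 12.34 in control and 12.55, 13.15, 12.64 and 12.52 in *Trsp* knockout, with all knockout libraries above the controls. The log2 difference was 0.72 (SE 0.21, limma adjusted p = 0.20). *Cbs* (ENSMUSG00000024039), which makes the cystathionine that *Cth* cleaves, had a difference of only 0.09 (SE 0.20), with controls from 11.77 to 12.75 and knockouts from 12.30 to 12.60.

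Across the whole gene set, 8 of 9 genes had a higher mean in *Trsp* knockout and 1, *Ggct*, a lower one, with a median log2 difference of 0.306 against -0.015 over all genes tested. The 5 genes whose knockout libraries all lay above the controls compare with 3.4% of all genes tested in that direction, and the 0 genes separated the other way with 2.62%. The summed normalized count of 7 erythroid markers was 33851 to 64674 in control and 14792 to 35226 in *Trsp* knockout, with 0 of the markers undetected, and its part in these differences was not tested.

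**Figure D1:**
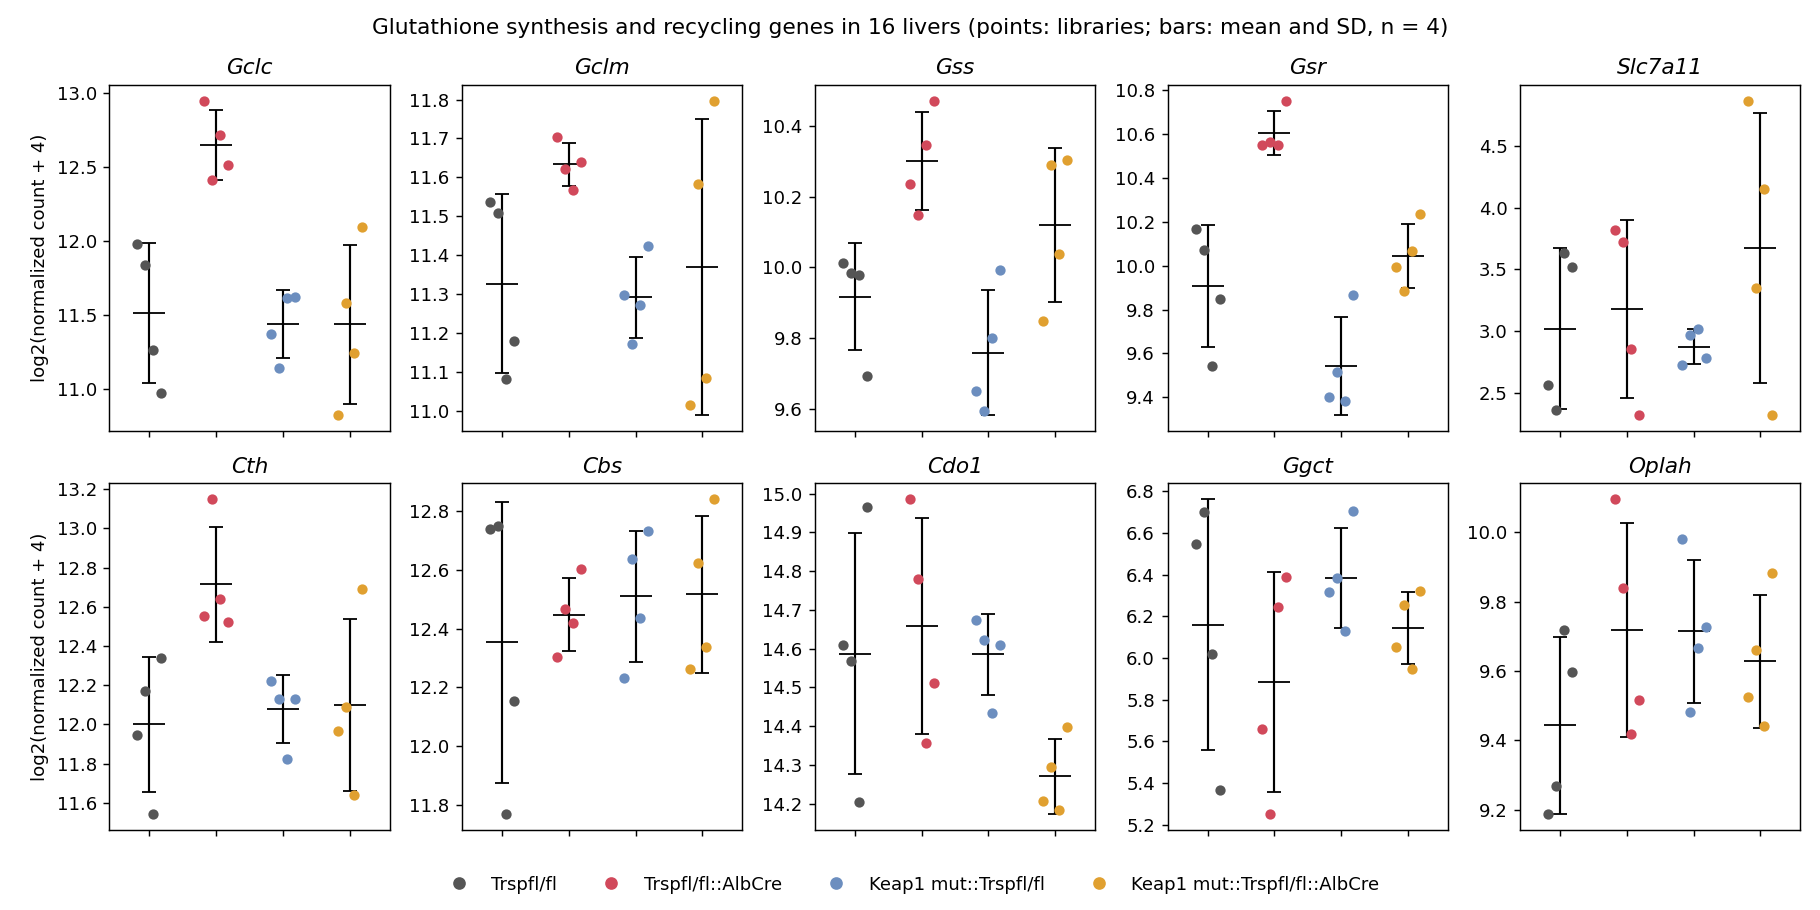
Each panel plots 1 gene, with log2(normalized count + 4) on the vertical axis, 1 point per library and the mean with its SD (n = 4) for each of the 4 genotypes, and the vertical scales differ between panels. *Gclc* sits at 12.41 to 12.95 in Trspfl/fl::AlbCre and at 12.09 or below in every other library, *Gsr* at 10.55 or above in that genotype and at 10.23 or below elsewhere, and *Cbs* overlaps throughout.

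With the KEAP1 substitutions, none of the 9 genes tested had an adjusted p under 0.05 for the same deletion. The mean differences were larger in *Gsr* and *Gss* than in *Gclc*, *Cth* or *Gclm*. *Gsr* values were 9.40, 9.52, 9.38 and 9.87 in *Keap1* mutant and 9.99, 9.88, 10.07 and 10.23 in compound mutant. The genotypes did not overlap, although the highest *Keap1* mutant and the lowest compound mutant library were close. The log2 difference was 0.50 (SE 0.14, limma adjusted p = 0.11), with adjusted p from 0.022 to 0.31 over 26 alternatives. It was under 0.05 with library totals (0.022), with quantile normalization (0.049) and without *Keap1* mutant replicate 4 (0.036).

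*Gss* values were 9.65, 9.59, 9.80 and 9.99 in *Keap1* mutant and 9.85, 10.29, 10.04 and 10.30 in compound mutant, so that replicate 1 of the compound mutant fell inside the range of the other genotype. The log2 difference was 0.36 (SE 0.12, limma adjusted p = 0.20), beside 0.38 with normal KEAP1, and library totals gave 0.49 (adjusted p = 0.017).

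*Gclc* values were 11.37, 11.14, 11.61 and 11.62 in *Keap1* mutant and 10.82, 11.58, 11.24 and 12.09 in compound mutant. The compound mutant libraries lay on both sides of the *Keap1* mutant range, with replicate 1 the lowest and replicate 4 the highest. The means were 11.44 ± 0.23 and 11.44 ± 0.54, and the 95% interval of the difference ran from -0.54 to 0.54. Without compound mutant replicate 1 the difference was 0.20, and without replicate 4 it was -0.22 (limma adjusted p = 0.84 and 0.71).

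*Cth* had values of 12.22, 12.13, 11.83 and 12.13 in *Keap1* mutant and 11.97, 12.09, 11.64 and 12.69 in compound mutant. Its log2 difference was 0.02 (95% interval -0.44 to 0.47), and 0.06 without compound mutant replicate 1 and -0.18 without replicate 4. *Gclm* ranged from 11.17 to 11.42 in *Keap1* mutant and from 11.01 to 11.80 in compound mutant, with a log2 difference of 0.08 (95% interval -0.25 to 0.41). That became 0.20 without compound mutant replicate 1 and -0.065 without replicate 4.

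*Cdo1* (ENSMUSG00000033022), cysteine dioxygenase, diverts cysteine from glutathione to taurine and sulfate. Its values were 14.67, 14.62, 14.43 and 14.61 in *Keap1* mutant and 14.21, 14.29, 14.18 and 14.40 in compound mutant, all compound mutant libraries being lower. The log2 difference was -0.31 (SE 0.17, limma adjusted p = 0.45). With normal KEAP1 it was 0.07, where the control libraries ran from 14.20 to 14.97.

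None of the 9 genes met the call rule in this background with limma or with voom (0 of 9, 0.171% of all genes tested), and none had an adjusted p under 0.05 (0.798% of all genes tested). At an unadjusted p under 0.05 there were 2 of 9, against 2146 of the 15781 genes. *Gsr* was the 1 gene separated upward (3.97% of all genes tested) and *Cdo1* the 1 gene separated downward (3.71%). The median difference was 0.007, against -0.005 over all genes. The summed hepatocyte markers were 1843204 to 2174140 in *Keap1* mutant and 851393 to 1741067 in compound mutant, and their part in these differences was not tested. *Alb*, 1 of these markers, held 8.65% to 10.75% of reads in *Keap1* mutant. In compound mutant it held 4.86% in replicate 1 and 6.35% to 7.67% in the other libraries.

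**Figure D2:**
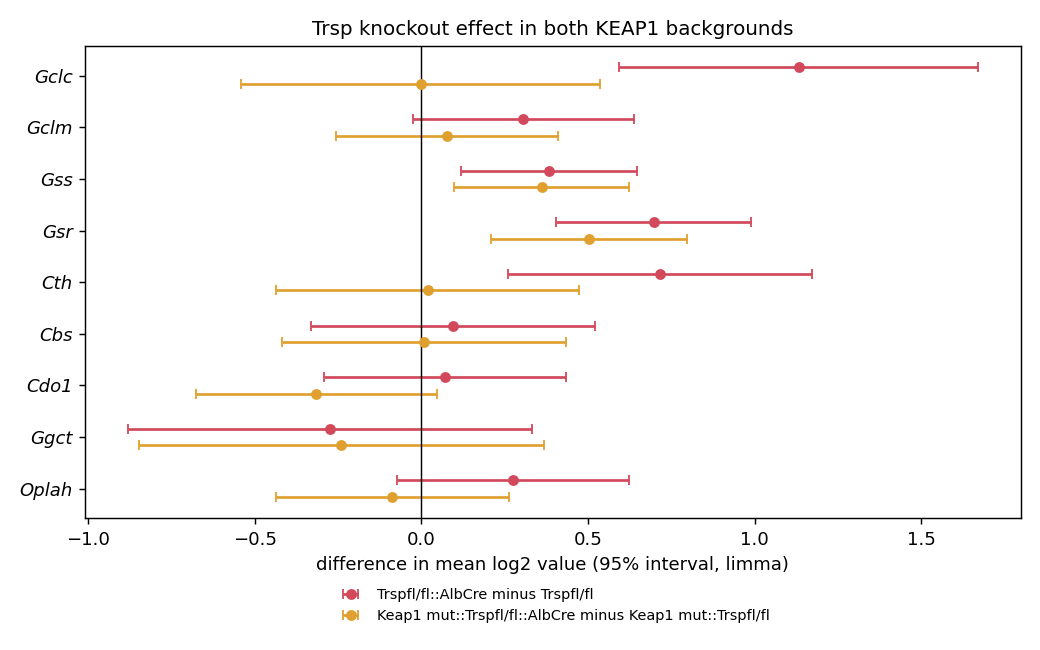
The horizontal axis is the difference of mean log2 values between mice with and without AlbCre, with limma 95% intervals, for the 9 genes tested (vertical axis), in red with normal KEAP1 and in orange with the substitutions. The intervals of *Gclc* run from 0.59 to 1.67 and from -0.54 to 0.54, whereas those of *Gss* lie over nearly the same range, from 0.12 to 0.65 and from 0.10 to 0.62.

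The difference between the knockout effects was tested as an interaction. For *Gclc* the effect was 1.13 lower on the log2 scale with the substitutions (difference -1.13, SE 0.36, limma adjusted p = 0.34), and the adjusted p ran from 0.092 to 0.58 over 25 alternatives. It was -0.93 without compound mutant replicate 1 (limma adjusted p = 0.52) and -1.35 without replicate 4 (limma adjusted p = 0.092). *Cth* had a difference of -0.70 (SE 0.30, limma adjusted p = 0.45), with -0.65 and -0.89 without the same libraries (limma adjusted p = 0.64 and 0.15). *Gsr* and *Gss* had differences of -0.19 (95% interval -0.61 to 0.22) and -0.02 (95% interval -0.40 to 0.35). None of the 9 met the call rule with limma or voom (0 of 9, 0.057% of all genes tested), *Gclc* and *Cth* had an unadjusted p under 0.05 (2 of 9, against 1697 of all genes), and 8 of 9 differences were below 0. As the reference NRF2 target of the study, *Nqo1* had knockout effects of 2.27 and 1.13 in the same fit and a difference of -1.14 (SE 0.29, limma adjusted p = 0.24).

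The ligase works as a catalytic and a modifier subunit, so the *Gclc* value was set against the *Gclm* value within each library. Gene length makes the ratio itself arbitrary, and only its difference between genotypes is read. The log2 ratio was 0.44, 0.33, 0.18 and -0.21 in control and 1.24, 0.79, 1.14 and 0.87 in *Trsp* knockout. All knockout libraries were above all controls, by 0.83 on average or 1.77-fold (means 0.19 ± 0.28 and 1.01 ± 0.21, SD, n = 4). The exact two-sided permutation p of 0.0286 is the smallest that 4 against 4 allows, and over the 2 ratio tests it adjusted to 0.0571.

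With the substitutions the ratio was 0.07, -0.03, 0.34 and 0.20 in *Keap1* mutant and -0.19, 0.00, 0.16 and 0.30 in compound mutant. The libraries overlapped, with a difference of -0.08 (exact permutation p = 0.571). Without compound mutant replicate 1 the difference was 0.01. Whether the shift differed between the KEAP1 backgrounds was not tested.

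**Figure D3:**
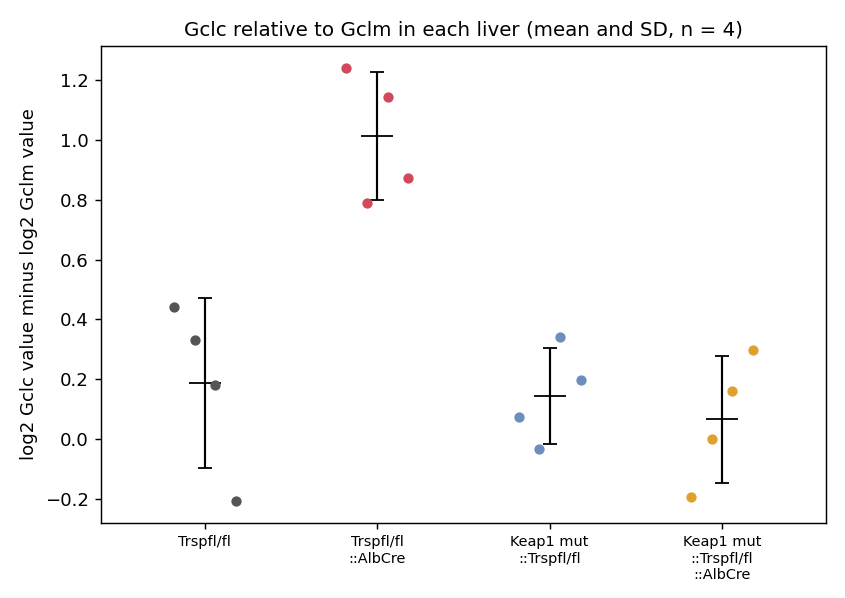
The vertical axis is the log2 *Gclc* value minus the log2 *Gclm* value in each library (points), with the mean and SD (n = 4) for the 4 genotypes on the horizontal axis. The 4 Trspfl/fl::AlbCre libraries lie from 0.79 to 1.24, and the other 12 lie from -0.21 to 0.44.

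The comparison of compound mutant with *Trsp* knockout asks what the substitutions change once *Trsp* is deleted. It shares its samples with the comparisons above. *Gclc* and *Gsr* were lower in every compound mutant library than in any *Trsp* knockout library. The log2 difference of *Gclc* was -1.21 (SE 0.25, limma adjusted p = 0.021), a level 2.31-fold lower, and that of *Gsr* was -0.56 (SE 0.14, limma adjusted p = 0.048), 1.47-fold lower. These 2 of 9 were under an adjusted p of 0.05 at any fold, as were 2.07% of all genes tested, and none met the call rule with limma or voom (0 of 9, 0.57% of all genes tested).

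Both differences kept their sign over the alternatives, but whether the adjusted p was under 0.05 varied with the libraries and settings kept. For *Gclc* the limma adjusted p was 0.003 without compound mutant replicate 4, where the difference of -1.43 met the call rule. It was 0.074 without compound mutant replicate 1, where the difference was -1.01, 0.078 without replicate 3, and 0.062 and 0.06 without *Trsp* knockout replicates 1 and 3. It was also 0.069 in the fit of these genotypes alone. For *Gsr* it was over 0.05 in 20 of 26 alternatives, 12 of them fits without 1 library of any genotype, with a highest value of 0.13 and a difference that stayed between -0.62 and -0.51 over the fits without 1 library.

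*Cth* had a log2 difference of -0.62 (SE 0.21, limma adjusted p = 0.15), which became -0.58 (adjusted p = 0.31) without compound mutant replicate 1 and -0.82 (adjusted p = 0.022) without replicate 4, the 1 setting of 26 under 0.05. *Cdo1* had -0.39 (SE 0.17, limma adjusted p = 0.25) and *Gclm* -0.26 (SE 0.16, limma adjusted p = 0.40). *Gclm* had -0.15 without compound mutant replicate 1 and -0.41 without replicate 4 (limma adjusted p = 0.72 and 0.099). Of the 9 genes, 7 had a lower mean in compound mutant, the median difference was -0.264 against 0.006 over all genes, and 4 had an unadjusted p under 0.05 against 2777 of all genes. The 2 genes separated downward compare with 4.08% of all genes tested, and the 0 separated upward with 4.53%. The 4 neutrophil markers found in the table summed to 144 to 287 normalized counts in *Trsp* knockout and 418 to 1600 in compound mutant, and the 4 megakaryocyte markers to 94.3 to 133 and 174 to 297. Neither pair of ranges overlapped, and none of these markers was at 0 throughout a genotype. The 8 hepatocyte markers summed to 1619860.5 to 1929173 in *Trsp* knockout and 851393 to 1741067 in compound mutant, ranges that overlapped. The part of all these markers in these differences was not tested.

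While *Trsp* was intact, the substitutions went with no separation of any of the 9 genes tested. *Gsr* had the largest difference in size, -0.37 (SE 0.14, limma adjusted p = 0.42), with 9.54 to 10.17 in control and 9.38 to 9.87 in *Keap1* mutant. The other 8 genes lay between -0.16 and 0.27. None met the call rule with limma or voom (0 of 9, 0.0127% of all genes tested), 1 had an unadjusted p under 0.05 against 1431 of all genes, and 0 were separated upward (3.19%) or downward (3.04%). *Nqo1* had -1.82 (SE 0.21, limma adjusted p = 0.0015) in the same comparison. The 7 erythroid markers summed to 33851 to 64674 in control and 12854 to 25541 in *Keap1* mutant, ranges that did not overlap, and their part in these differences was not tested.

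Compound mutant against control, the comparison across both changes, gave differences from -0.32 in *Cdo1* (95% interval -0.68 to 0.05) to 0.20 in *Gss* (95% interval -0.06 to 0.47). *Gclc* had -0.08 (95% interval -0.62 to 0.46), which was 0.13 without compound mutant replicate 1 and -0.30 without replicate 4. No gene was separated upward (3.09%) or downward (3.14%), none met the call rule with limma or voom (0 of 9, 0.133% of all genes tested), and 0 had an unadjusted p under 0.05 against 2013 of all genes. Neutrophil markers summed to 160 to 803 in control and 418 to 1600 in compound mutant, and the erythroid markers to 33851 to 64674 and 15503 to 96402. The hepatocyte markers summed to 1560212 to 1977113 in control and 851393 to 1741067 in compound mutant. The part of all these markers in these differences was not tested.

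**Figure D4:**
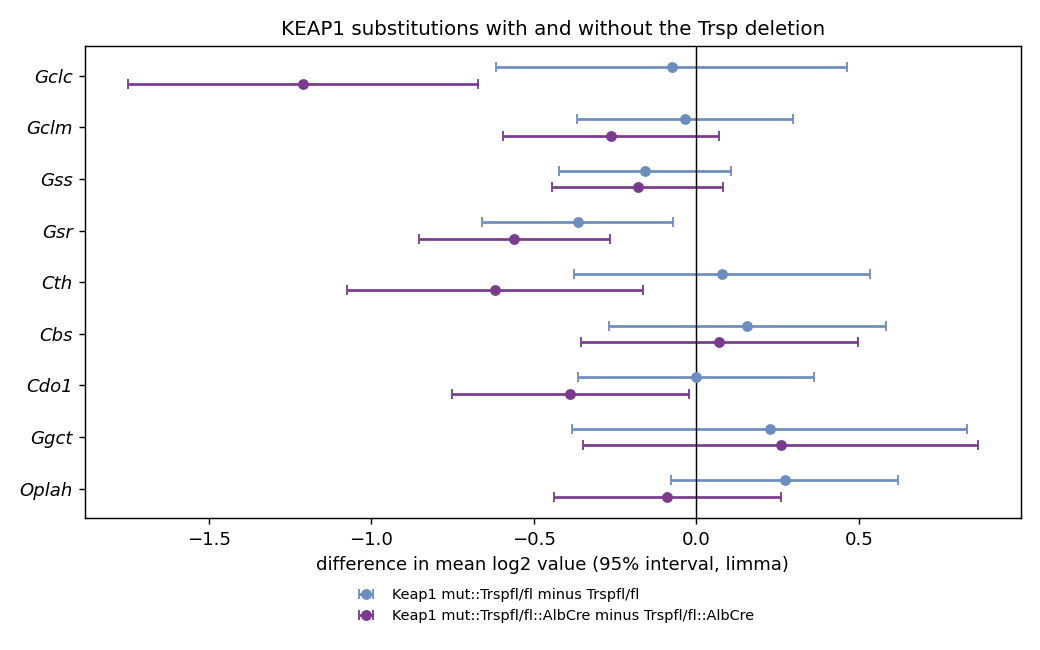
The horizontal axis is the difference of mean log2 values between mice with and without the KEAP1 substitutions, with limma 95% intervals, for the 9 genes tested (vertical axis), in blue while *Trsp* was intact and in purple with *Trsp* deleted. With *Trsp* deleted *Gclc* lies at -1.21 (95% interval -1.75 to -0.67), and with *Trsp* intact at -0.08 (95% interval -0.61 to 0.46).

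The order of the genotype means differed between genes. *Gclc* was highest in *Trsp* knockout (12.65), and control (11.51), *Keap1* mutant (11.44) and compound mutant (11.44) did not differ beyond their spread. *Gsr* ran from *Trsp* knockout (10.60 ± 0.10) through compound mutant (10.05 ± 0.15) and control (9.91 ± 0.28) to *Keap1* mutant (9.54 ± 0.22), with compound mutant and control within their spread of each other. *Gss* followed the same order as *Gsr*, from 10.30 ± 0.14 to 9.76 ± 0.18. Neighbours in the *Gss* order lay 0.16 to 0.20 apart, about as far as libraries of 1 genotype did.

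*Ggct*, *Oplah* and *Cbs* overlapped between all genotypes. *Ggct* (ENSMUSG00000002797), gamma-glutamylcyclotransferase, acts on gamma-glutamyl amino acids and was weakly expressed, with 26 to 105 reads per library. Its means were 6.16 ± 0.60 in control, 5.89 ± 0.53 in *Trsp* knockout, 6.38 ± 0.24 in *Keap1* mutant and 6.14 ± 0.17 in compound mutant. *Oplah* (ENSMUSG00000022562), 5-oxoprolinase, returns oxoproline to glutamate, and its means ran from 9.44 ± 0.26 in control to 9.72 ± 0.31 in *Trsp* knockout. The genotype means of *Cbs* spanned 0.16 on the log2 scale, the narrowest span of the 10 genes.

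*Slc7a11* (ENSMUSG00000027737), the cystine-importing subunit of system xc-, was close to the detection limit. Control libraries held 2, 1, 9 and 6 reads and *Trsp* knockout libraries 10, 7, 3 and 1. *Keap1* mutant libraries held 3, 4, 5 and 3, and compound mutant libraries 27, 7, 15 and 1. The compound mutant sum of 50 reads (exact 95% Poisson interval 37.1 to 65.9, counting error only) was the highest, against 18 (10.7 to 28.5), 21 (13.0 to 32.1) and 15 (8.40 to 24.7) in the other genotypes. More than any other library, compound mutant replicate 1 made up that sum, and replicate 4 held 1 read. With all genes kept in the fit, compound mutant against *Keap1* mutant gave a log2 difference of 0.80 (SE 0.48, limma adjusted p = 0.53), so the test found no difference past its threshold.

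Genes around the pathway were counted from 7 lists. Of 12 methionine cycle genes tested, of 10 for cysteine and sulfide breakdown, of 8 in glutathione breakdown and of 7 for cysteine and glutamate uptake, none met the call rule in any of the 5 pairwise comparisons. The rule called 0.0127% to 0.57% of all genes tested in these comparisons, so lists of this size would seldom hold a called gene. The glutathione breakdown gene farthest from 0 with normal KEAP1 was *Ggt6*, of the gamma-glutamyltransferase family, at 1.27 (SE 0.35, limma adjusted p = 0.16). With the substitutions it was *Chac1*, which cleaves glutathione in the cytosol, at 1.45 (SE 0.61, limma adjusted p = 0.31). For the methionine cycle it was *Bhmt* with the substitutions, at -0.91. For cysteine breakdown the genes farthest from 0 with normal KEAP1 and with the substitutions were *Got1* at 0.86 and *Csad* at 0.999, and for uptake *Slc1a4* at -1.07 and *Slc1a2* at -1.14, none of them under an adjusted p of 0.05.

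The transport list was drawn up for carriers of glutathione and its conjugates, with *Abcc3*, *Abcc4* and *Abcg2* as ATP-driven exporters. What these carriers move in these livers was not measured, so their mRNA levels are not a measure of glutathione export. Of 10 transport genes tested, *Abcc4* was called in *Trsp* knockout against control, rising from 7.12 ± 0.46 to 9.54 ± 0.48 (log2 difference 2.42, SE 0.23, limma adjusted p = 5.1e-05). This 1 of 10 compares with 0.215% of all genes tested. *Abcc3* (1.92, limma adjusted p = 0.022) and *Abcg2* (0.76, limma adjusted p = 0.0055) were also higher there. That made 3 of 10 under an adjusted p of 0.05 at any fold, beside 0.558% of all genes tested. In compound mutant against *Trsp* knockout 3 of 10 were called, all lower, where 0.57% of all genes tested were called, and these were *Abcc3* (-2.31), *Abcc4* (-2.01) and *Abcg2* (-1.19). The list's median differences in these comparisons were 0.242 and -0.51, against -0.015 and 0.006 over all genes. In the other 3 pairwise comparisons 0 of 10 were called, where 0.0127% to 0.171% of all genes tested were. *Abcc4* was 1.04 higher in compound mutant than in *Keap1* mutant (SE 0.23, limma adjusted p = 0.054). All transport values are from the fit of all libraries, and none without compound mutant replicate 1 or another single library is given.

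Of 9 genes for glutathione-dependent detoxification, the microsomal transferases *Mgst1* (-1.20, SE 0.14, limma adjusted p = 0.00014) and *Mgst3* (-1.31, SE 0.19, limma adjusted p = 0.0013) were called lower in compound mutant than in *Trsp* knockout. These 2 of 9 compare with 0.57% of all genes tested. For this list as well, values without single libraries are not given. All 9 had lower means there, with a median of -0.46 against 0.006 over all genes. All 9 were also lower in compound mutant than in control (median -0.388 against -0.009 over all genes). Of the 9, 8 were lower in compound mutant than in *Keap1* mutant (median -0.189), and 7 in *Keap1* mutant than in control (median -0.09). In *Trsp* knockout against control 0 of 9 were called (0.215% of all genes tested), the gene farthest from 0 being *Mgst3* at 0.74 (limma adjusted p = 0.13), and with the substitutions it was *Gstk1* at -0.48 (limma adjusted p = 0.28).

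Targets of ATF4, a stress factor that also drives *Slc7a11*, *Cth* and *Chac1*, formed the last list, which shares *Chac1* with the glutathione breakdown list. All 12 had higher means in compound mutant than in *Keap1* mutant, with a median of 1.431 against -0.005 over all genes, although 0 of 12 met the call rule (0.171% of all genes tested). *Psat1*, of serine synthesis, had 2.45 (SE 0.45, limma adjusted p = 0.017) and *Nupr1* 1.82 (SE 0.39, limma adjusted p = 0.041). These 2 of 12 were under an adjusted p of 0.05, as were 0.798% of all genes tested. *Fgf21* lay farthest from 0 there, at 2.94 (SE 0.83, limma adjusted p = 0.12). Compound mutant libraries ran from 6.17 to 8.69 in *Psat1*, 5.29 to 6.92 in *Nupr1* and 4.39 to 8.04 in *Fgf21*. *Keap1* mutant libraries ran from 4.42 to 5.16, 3.66 to 5.43 and 3.15 to 4.34. No values without single libraries are given for this list. With normal KEAP1 the median was 0.608, 8 of 12 were higher, 0 were called (0.215% of all genes tested), and *Atf3* lay farthest from 0 at 1.66 (SE 0.83, limma adjusted p = 0.49).

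Across the 16 libraries the genes of the set varied together to different degrees, given here as Pearson correlations of log2 values over libraries that share scaling and genotype. *Gclc* and *Gclm* had r = 0.858, and 0.879 after the genotype means were taken out. *Gsr* and *Gss* had 0.809 overall and 0.40 within genotypes, whereas *Gsr* and *Cbs* had 0.289 overall and 0.821 within. Of the 15780 other genes tested, *Slc35d2* (0.932) and *Akr1a1* (0.922) were the most like *Gclc*, *Fkbp8* (0.902) and *Ipp* (0.874) the most like *Gclm*, and *Creg1* (0.929) and *Ugdh* (0.927) the most like *Gsr*. With the genotype means taken out these were 0.908, 0.834, 0.874, 0.892, 0.582 and 0.452, so that the pairs with *Gsr* dropped the furthest of the 6. For *Gss* they were *Cct6a* (0.892) and *Hint1* (0.887), for *Cth* *Tmem106b* (0.898) and *Ap4b1* (0.896), and for *Cbs* *Spg20* (0.883) and *Pde9a* (0.852). *Cdo1* was most like *Lhpp* (0.83) and *Zfp949* (0.828), *Ggct* like *Lasp1* (0.885) and *Smarca4* (0.863), and *Oplah* like *Bin3* (0.882) and *Retsat* (0.878).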

How the data were processed

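Liver RNA of 16 libraries was analysed, 4 per genotype, grouped by the sample labels. Per the study's methods the authors depleted rRNA, prepared directional libraries, quantified reads on GENCODE mouse transcripts with Salmon and went on in iDEP. The table they deposited holds log2 values, in which the authors divided reads by a size factor and added 4, so that 0 reads is 2. Reversing this gave whole reads for 100% of low values (tolerance 0.1 reads). All sample columns were used. The 369 rows with no gene identifier (0.274% to 0.627% of reads) were left out.

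limma 3.58.1 (R 4.3.3; lmFit, contrasts.fit, eBayes with trend) fitted those log2 values for all 16 libraries at once, with a mean per genotype. Genes with a normalized count of at least 10 in 4 libraries were tested, with Benjamini-Hochberg adjustment over 15781 genes. The *Gclc* to *Gclm* ratio used exact permutation tests. A fold on log2(value + 4) understates the change of weakly expressed genes. Counting error was largest for *Slc7a11* and *Ggct*. The fit was tested on simulated data. The members and gene lists were chosen with earlier results of these data known. Genes of other lists were named if called, if under an adjusted p of 0.05 where stated, or as the farthest from 0 of a list in either knockout comparison, and 1 such value is not reported here. Alternatives were constants of 1 and 0.5, quantile normalization, library totals, other filters, a fit of the compared genotypes alone, eBayes without trend, voom, a replicate block, an adjusted p under 0.05 and each library left out. Tables used pandas 2.3.3 under Python 3.11.15, permutation tests scipy 1.17.1 and plots matplotlib 3.10.9.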

Additional observations from a re-analysis of the deposited data

Results flagged for a closer look

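Of 40 groups of 4 libraries examined (10 genes in 4 genotypes), 2 held a library far from the others, and chance gives about 2. *Gss* in control replicate 4 was 9.69, against 9.98 in the nearest library and 10.01 in the highest. *Gsr* in *Trsp* knockout replicate 4 was 10.75, against 10.56 in the nearest library and 10.55 in the lowest. Without those libraries the log2 differences between *Trsp* knockout and control were 0.31 for *Gss* and 0.65 for *Gsr*.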

How the results depend on the processing

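The count of genes called (0 of 9 in each comparison) became 1 in *Trsp* knockout against control and 2 in compound mutant against *Trsp* knockout at an adjusted p under 0.05 at any fold. With 1 library left out it ranged from 0 to 1 in the latter, and the other alternatives left it at 0. The replicate numbers did not pair the libraries: same-numbered libraries correlated at -0.315 to 0.31 in their deviations from the genotype means (median -0.037), and 2 of 16 libraries correlated best with their own number. With the replicate block 0 genes were called, and the adjusted p of *Gclc* and *Gsr* in compound mutant against *Trsp* knockout was 0.055 and 0.056. The *Gclc* to *Gclm* difference of 0.83 between *Trsp* knockout and control had an exact p of 0.125 under the replicate block, the smallest 4 pairs allow. With 1 library left out it ran from 0.69 to 0.91, with an exact p of 0.0571, the smallest that 3 against 4 allows. With the substitutions the ratio difference then ran from -0.16 to 0.0070.

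Of 1395 member differences under the alternatives, 72 changed sign, in 23 of 54 results, none of which was over 0.2251 in size. With library totals the median difference of all genes became 0.12 in compound mutant against *Keap1* mutant and 0.13 against *Trsp* knockout. It became 0.11 in compound mutant against control and 0.13 in the interaction. In the main fit these medians were -0.005, 0.006, -0.009 and 0.002. The cause of the sign changes was not tested. With quantile normalization they became -0.028 for *Cbs* and -0.023 for *Cdo1* in *Trsp* knockout against control, 0.13 for *Gclc* in compound mutant against *Keap1* mutant, 0.011 for *Gclc* and 0.019 for *Ggct* in compound mutant against control and 0.24 for *Cbs*, -0.043 for *Ggct* and 0.082 for *Gss* in the interaction. With library totals they became 0.13 for *Gclc* and 0.043 for *Oplah* in compound mutant against *Keap1* mutant, 0.037 for *Oplah* in compound mutant against *Trsp* knockout, 0.048 for *Gclc* and 0.10 for *Ggct* in compound mutant against control and 0.045 for *Cbs* and 0.11 for *Gss* in the interaction. With voom they became 0.0020 for *Gclc* in compound mutant against *Keap1* mutant. The rest changed sign with 1 library left out. In *Trsp* knockout against control the range was -0.10 to 0.23 for *Cbs* and -0.056 to 0.20 for *Cdo1*. In compound mutant against *Keap1* mutant the range was -0.10 to 0.092 for *Cbs*, -0.18 to 0.17 for *Cth*, -0.22 to 0.20 for *Gclc*, -0.065 to 0.20 for *Gclm* and -0.17 to 0.0027 for *Oplah*. In *Keap1* mutant against control the range was -0.039 to 0.29 for *Cbs*, -0.13 to 0.12 for *Cdo1*, -0.074 to 0.19 for *Cth*, -0.26 to 0.078 for *Gclc*, -0.12 to 0.035 for *Gclm* and -0.039 to 0.41 for *Ggct*. In compound mutant against *Trsp* knockout the range was -0.039 to 0.15 for *Cbs* and -0.19 to 0.036 for *Oplah*. In compound mutant against control the range was -0.032 to 0.30 for *Cbs*, -0.10 to 0.25 for *Cth*, -0.30 to 0.13 for *Gclc*, -0.0998 to 0.16 for *Gclm* and -0.28 to 0.17 for *Ggct*. In the interaction the range was -0.22 to 0.11 for *Cbs*, -0.18 to 0.30 for *Ggct* and -0.084 to 0.068 for *Gss*. *Slc7a11* (1 to 27 reads) and *Ggct* (26 to 105) carried the most counting error, beside the spread between libraries that they share with the others.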
